A study of Mus musculus with 2 samples.

Results

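The Mir26 family of the mouse comprises 3 miRNA genes, Mir26b, Mir26a-2 and Mir26a-1, each of which lies in an intron of a Ctdsp gene. Their levels were measured by microRNA sequencing in whole stomach of embryos at 14.5 days of development. The members were taken by name, through the Ensembl identifiers of the deposited count tables, and all 3 were found among the 1973 genes counted. The single group consisted of 2 biological replicates of strain B6NCrl, with no genetic change or treatment named in the labels. RNA of less than 30 nt was sequenced. The labels give each replicate as the stomach of 1 pup, collected on different days, yet give the sex as both male and female, so pooling of embryos is not excluded. The replicates share genotype, age and tissue, and the study has no contrast between conditions. The replicate and the day of collection cannot be told apart.

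A miRNA gene is transcribed as part of a longer RNA, from which a hairpin precursor is cut and then trimmed to a short duplex. A strand of the duplex, named 5p or 3p after its arm, is loaded into an Argonaute protein and pairs with target mRNAs mainly through its seed, the bases from position 2 to position 8. Ctdsp genes encode small phosphatases that act on the C-terminal domain of RNA polymerase II and are known as partners of REST, a repressor of neuronal genes in non-neuronal cells. In zebrafish, mature miR-26b is known to repress the mRNA of its own host, ctdsp2, during neurogenesis. In mouse myoblasts miR-26a is known to repress Ezh2, a histone methyltransferase. Messenger RNAs, the hosts among them, are outside the size range of these libraries.

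The sequences are shown first because reads of 1 member can be assigned only where they differ from the others. The 5p sequences, with the seed in capitals, are credited to RefSeq (GRCm38.p6) and read as follows.
mmu-miR-26b-5p: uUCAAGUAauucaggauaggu
mmu-miR-26a-5p: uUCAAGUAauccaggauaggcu
The second of these is the 5p product of both Mir26a-2 and Mir26a-1. All 3 genes therefore carry the same 5p seed, and no other gene among the 1738 mature sequences of the RefSeq table has it. Counted from 1 at the 5′ end, miR-26b-5p differs from miR-26a-5p by the substitutions C11U and C21U over the 21 positions compared, and it is 1 base shorter, at 21 nt against 22 nt.

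The 3p sequences, from the other arm of the hairpin, distinguish all 3 genes and are shown for that reason, again with bases 2 to 8 in capitals.
mmu-miR-26b-3p: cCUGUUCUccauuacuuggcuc
mmu-miR-26a-2-3p: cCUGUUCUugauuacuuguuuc
mmu-miR-26a-1-3p: cCUAUUCUugguuacuugcacg
The 3p arms of Mir26a-1 and Mir26a-2 differ at 6 of 22 positions. Those of Mir26b and Mir26a-2 differ at 4 positions outside bases 2 to 8, and share that stretch. The 3p arm of Mir26a-1 differs from both within it, by the substitution A4G.

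The hairpins show how far the identity of the Mir26a genes extends. Capitals mark the longest stretch that both Mir26a hairpins have in common.
Mir26a-2 hairpin: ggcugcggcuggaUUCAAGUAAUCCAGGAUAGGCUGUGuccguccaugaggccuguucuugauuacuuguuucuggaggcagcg
Mir26a-1 hairpin: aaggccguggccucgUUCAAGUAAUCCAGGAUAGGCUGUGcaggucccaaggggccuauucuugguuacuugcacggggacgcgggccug
This stretch is 25 nt long, starts at the first base of miR-26a-5p and ends 3 nt beyond it. A read that lies within it occurs at both loci. In the Mir26b hairpin, the longest stretch in common with Mir26a-1 is 11 nt and with Mir26a-2 10 nt, both shorter than a mature miRNA. Capitals mark the 11 nt.
Mir26b hairpin: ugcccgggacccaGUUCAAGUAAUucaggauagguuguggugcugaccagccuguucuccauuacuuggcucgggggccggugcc

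The genes lie on separate chromosomes, each on the strand of its host. All coordinates are on GRCm38 (mm10), from GENCODE M21. Mir26b (ENSMUSG00000065468.1) is at chr1:74394310-74394394, plus strand, in intron 4 of 6 of transcript Ctdsp1-201. That intron is 564 bases long, and the hairpin starts 234 bases after the upstream exon. Mir26a-2 (ENSMUSG00000065430.1) is at chr10:126995530-126995613, plus strand, in intron 5 of 7 of Ctdsp2-202, an intron of 1946 bases. Mir26a-1 (ENSMUSG00000065513.1) is at chr9:119031796-119031885, plus strand, in intron 5 of 7 of Ctdspl-201, an intron of 3283 bases.

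In all 3 transcripts the miRNA is thus followed by 2 further introns, while the hosts differ widely in size. Ctdsp1 spans 5777 bases, Ctdsp2 21259 and Ctdspl 117546. In GENCODE M21 the hairpin is intronic in every transcript that spans it, 2 of Ctdsp1, 1 of Ctdsp2 and 3 of Ctdspl, and it overlaps no exon of them. The related gene Ctdspl2 on chromosome 2 hosts no Mir26 gene.

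**Figure D1:**
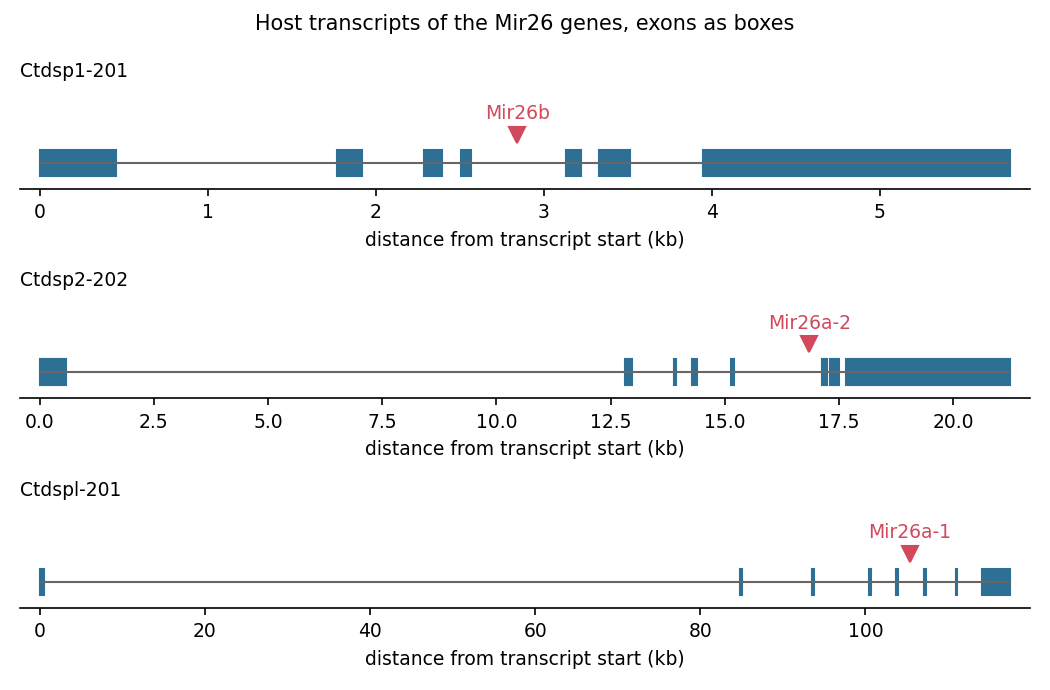
Host transcripts of the Mir26 genes, drawn to scale within each panel, with distance from the transcript start in kb on the horizontal axis; boxes are exons and the triangle marks the miRNA. In each transcript 2 introns follow the one that holds the miRNA, although the span is 5.777 kb for Ctdsp1-201 and 117.546 kb for Ctdspl-201.

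The tables hold whole-number read counts per gene. Summed over genes, replicate 2 had 4679914 counts and replicate 1 had 5004548, and levels are given as counts per 1000000 of these (CPM), a share of the counted miRNA and not an amount per cell. In whole tissue, fewer cells of a type and less RNA per cell cannot be told apart. As a check of the tissue, 5 of 5 epithelial miRNAs of the Mir200 family were detected and totalled 41482 CPM in replicate 2, against 41439 CPM in replicate 1. The smooth muscle miRNAs Mir143 and Mir145a totalled 146512 and 164146 CPM, and Mir126a of endothelium had 19164 and 21613 CPM. Mir122 of liver had 65.8 and 56.7 CPM, and 6 miRNAs of striated muscle had 98.5 and 114 CPM in all, of which Mir133a-1 had 0 counts. Mir208b held most of the muscle sum, at 86.3 and 95.1 CPM. Reads mapped to more than 1 place are in no gene's count, so low values or a 0 do not show that a tissue was absent. The erythroid miRNAs Mir451a, Mir144 and Mir486 totalled 218 and 151 CPM.

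Among reads assigned to a single gene, Mir26b was one of the most abundant miRNAs, while both Mir26a genes were counted at low levels. No level or rank includes reads mapped to more than 1 place, whose number relative to gene counts was 48.4% for replicate 2 and 48.7% for replicate 1. Mir26b had 158196 counts in replicate 2 and 169918 in replicate 1, which is 33803 CPM (95% interval 33640 to 33967) and 33953 CPM (33794 to 34112). The intervals are exact binomial ones, and since reads carry no molecular identifiers they cover counting error only. The mean of 33878 ± 106 CPM (SD, n = 2) placed Mir26b 6th among the 361 genes detected, those with 10 or more counts in both libraries. This SD depends on the scaling, and was 980 CPM with edgeR's TMM factors and 1605 CPM with DESeq2's size factors.

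Mir26a-2 had 267 counts in replicate 2 and 236 in replicate 1, or 57.1 CPM (50.4 to 64.3) and 47.2 CPM (41.3 to 53.6). Its mean was 52.1 ± 7.00 CPM (SD, n = 2), rank 230. Mir26a-1 was the lowest, with 81 counts in replicate 2 and 99 in replicate 1. That is 17.3 CPM (13.7 to 21.5) and 19.8 CPM (16.1 to 24.1), a mean of 18.5 ± 1.75 CPM (SD, n = 2) and rank 275. The order Mir26b, Mir26a-2, Mir26a-1 held in both libraries, and the ranges of the 3 genes did not overlap.

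All reads of the 3 genes were on the annotated strand. The opposite strand held 0 counts for each gene in both libraries, which allows up to 3 counts, or 0.641 CPM in replicate 2 and 0.599 CPM in replicate 1. All 3 genes passed the minimum for detection. Together they made up 33949 ± 100.5 CPM, or 3.39% of gene counts. Of the counted family total, Mir26b supplied 99.78% in replicate 2 and 99.80% in replicate 1. With every read that maps to several places given to Mir26a, a bound and not an estimate, these shares would be 6.53% and 6.52%.

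**Figure D2:**
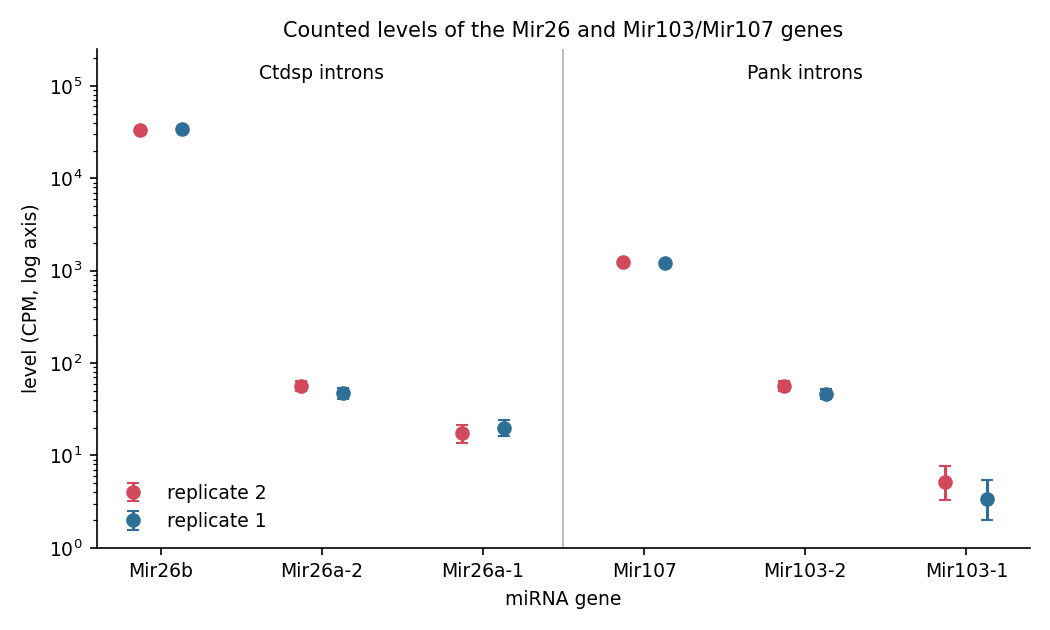
Level of each Mir26 gene, and for comparison of the Mir103 and Mir107 genes in Pank introns, in CPM on a log axis; points are the libraries (replicate 2 left, replicate 1 right) and bars are 95% exact binomial intervals. Mir26b stands at 33803 and 33953 CPM, Mir26a-2 between 47.2 and 57.1 CPM and Mir26a-1 between 17.3 and 19.8 CPM.

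Within a library, Mir26b exceeded Mir26a-2 by 592-fold in replicate 2 (525 to 671) and 720-fold in replicate 1 (634 to 822). The log2 ratio was 9.35 ± 0.20 (SD, n = 2). Over Mir26a-1 it was 1953-fold in replicate 2 (1571 to 2459) and 1716-fold in replicate 1 (1410 to 2112), a log2 ratio of 10.84 ± 0.13. Both differences were many times the spread between replicates. No test over samples was made, because an exact test over 2 libraries of 1 group has too few arrangements to reach 0.05.

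These folds compare the counts that the tables assign to a gene, and not the amounts of miR-26b and miR-26a. Reads that map to several places were counted for no gene. They numbered 2263676 in replicate 2 and 2437052 in replicate 1, which is 14.3 times the count of Mir26b in each library. The tables do not say which miRNAs they belong to, and miR-26a-5p is a sequence that occurs at 2 loci. If 6.97% of them in replicate 2, or 6.96% in replicate 1, were miR-26a reads, the Mir26a genes together would equal Mir26b. With all of them given to Mir26a-2, the log2 ratio of Mir26b over Mir26a-2 would turn to -3.84. The order of mature miR-26b and miR-26a in this tissue is thus not determined by these counts. From which arm the counted Mir26a reads came was not analysed here, and the part of shared sequence in their low counts was not tested.

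Between the Mir26a genes, the counted reads favoured Mir26a-2. It exceeded Mir26a-1 by 3.30-fold in replicate 2 (2.56 to 4.28) and 2.38-fold in replicate 1 (1.88 to 3.05), a log2 ratio of 1.49 ± 0.33 (SD, n = 2). The interval excluded equality in both libraries. Mir26a-2 held 76.7% of the 348 Mir26a counts in replicate 2 (71.9 to 81.1, exact binomial) and 70.4% of 335 in replicate 1 (65.2 to 75.3). This share did not differ between the libraries at the 0.05 threshold (Fisher's exact test on the counts, two-sided, p = 0.0683, odds ratio 1.38). The reads that both loci share are missing from these values, so they describe the reads specific to each locus.

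As shares of gene counts, the levels of Mir26b in the libraries were very close, which depends on the scaling, as given below. Its log2 ratio of replicate 2 over replicate 1 was -0.0064 (95% interval -0.016 to 0.0035), and 5 of the 196 genes of 100 CPM or more had a smaller absolute ratio. An exact binomial test, with p-values adjusted by Benjamini-Hochberg across the 361 detected genes, gave an adjusted p = 0.336. Mir26a-2 had a log2 ratio of 0.27 (0.02 to 0.53) and Mir26a-1 one of -0.19 (-0.63 to 0.25). By the same exact test the adjusted p was 0.0781 for Mir26a-2 and 0.553 for Mir26a-1. This test sets 1 library against the other and does not compare conditions.

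By adjusted p, 0 of the 3 Mir26 genes differed between the libraries, against a background of 42.1% of all detected genes. At an unadjusted p under 0.05, 1 did, Mir26a-2 (exact binomial test, p = 0.0359), against a background of 49.3%. With an absolute log2 ratio of 1 or more as well, the background was 1.11%. The background split into 89 genes higher and 63 lower in replicate 2, a split that moved to 74 against 94 with edgeR's TMM factors, 58 against 115 with DESeq2's size factors and 74 against 92 without the 5 most abundant genes in the total. With these scalings Mir26b passed the threshold as lower in replicate 2, at log2 ratios of -0.059, -0.097 and -0.055, with adjusted p values of 1.18e-30, 1.04e-80 and 1.90e-26 in the exact binomial test, so its call rests on the scaling. The 3 members had a median log2 ratio of -0.0064, beside 0.035 over all genes tested.

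**Figure D3:**
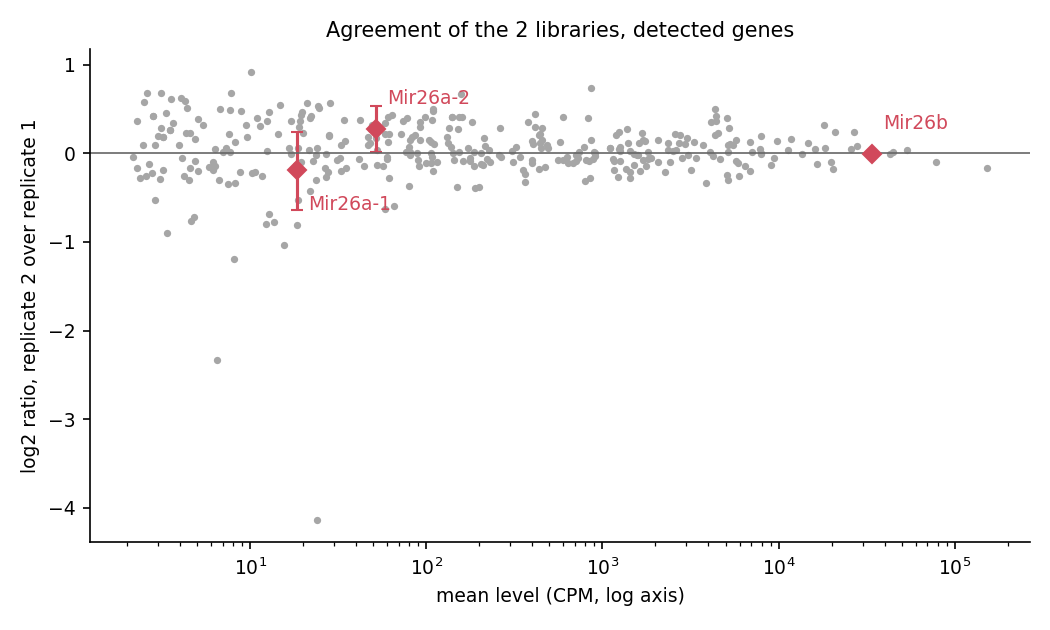
Log2 ratio of replicate 2 over replicate 1 against mean level in CPM (log axis) for the 361 detected genes; diamonds are the Mir26 genes with 95% exact intervals. Mir26b lies at -0.0064, and the intervals of Mir26a-2 and Mir26a-1 span 0.02 to 0.53 and -0.63 to 0.25.

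The genes nearest to each member in level were then listed, by distance in mean log2 CPM over the 2 libraries. Mir26b lay between members of the let-7 family, known for its rise during differentiation. Mirlet7g was next above, at 42617 ± 172 CPM and a distance of 0.33, and Mirlet7i next below, at 27882 ± 1109 CPM and a distance of 0.28. Mir10a of the Hoxb cluster (44729 ± 372 CPM) and Mir23b (26684 ± 3171 CPM) followed on either side. The range of Mir26b overlapped that of none of the 4.

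The Mir26a genes had neighbours very close in level, and the choice of the nearest genes favours overlap of their ranges. Mir26a-2 stood between Mir592 at 52.4 ± 3.36 CPM and Mir103-2 at 51.8 ± 7.42 CPM, with Mir877 at 52.6 ± 0.89 and Mir760 at 51.7 ± 4.50 CPM beyond them. Mir26a-1 stood between Mir7-2 at 18.8 ± 4.80 CPM and Mir1247 at 18.5 ± 7.15 CPM, with Mir466n at 18.8 ± 0.60 and Mir193a at 18.1 ± 1.18 CPM beyond them. The ranges of all 8 neighbours overlapped that of the member, so the order among them is not determined.

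The closest counterpart of the family is the set of Mir103-2, Mir103-1 and Mir107, which lie in introns of Pank genes, whose products are pantothenate kinases that start coenzyme A synthesis. These miRNAs are known as regulators of insulin sensitivity and lipid metabolism. Here too 1 mature sequence comes from 2 genes, and the third gene differs from it by 1 base, G22C counted from the 5′ end. The 3p sequences are shown with bases 2 to 8 in capitals.
mmu-miR-107-3p: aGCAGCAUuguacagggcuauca
mmu-miR-103-3p: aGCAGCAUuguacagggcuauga
The second is the 3p product of both Mir103-2 and Mir103-1, whose 5p arms differ from each other by a single substitution, G1A (Mir103-1 first). In Pank1-201, Pank2-203 and Pank3-201, 1 intron follows the one with the miRNA, against 2 in the Ctdsp transcripts named above. Introns were numbered in 1 transcript per host, and other transcripts that span these miRNAs may differ.

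In counted reads, which leave out those the copies share, the order ran the same way in both families. Given every read that maps to several places, the Mir26a side would be the higher, at the log2 ratio of -3.84 above. Mir107, the gene with sequences of its own, had 1257 CPM in replicate 2 and 1212 CPM in replicate 1. Mir103-2 had 57.1 and 46.6 CPM, and Mir103-1 had 5.13 and 3.40 CPM. Mir107 exceeded Mir103-2 by 22.0-fold in replicate 2 (19.5 to 25.0) and 26.02-fold in replicate 1 (22.8 to 29.8). The corresponding folds of Mir26b over Mir26a-2, above, were larger in both libraries in counted reads, and their counting intervals did not overlap these. Reads mapped to several places also outnumbered the counts of Mir107, 2263676 against 5881 in replicate 2 and 2437052 against 6063 in replicate 1. A miR-107-3p read that ends before base 22 fits miR-103-3p as well. Which family has the larger gap in mature miRNA is thus not determined by these counts.

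Mir26b exceeded Mir107 by 26.9-fold in replicate 2 and 28.0-fold in replicate 1, a log2 ratio of 4.78 ± 0.042 (SD, n = 2). Mir26a-2 and Mir103-2 had 267 counts each in replicate 2, and 236 and 233 in replicate 1, a log2 ratio of 0.0092 ± 0.013. The counting interval of that ratio ran from -0.25 to 0.25 in replicate 2. Mir26a-1 exceeded Mir103-1 by 3.38-fold in replicate 2 (2.12 to 5.57) and 5.82-fold in replicate 1 (3.46 to 10.4). The 3 genes in Pank introns, like those of the Mir26 family, included 0 that differed between the libraries by adjusted p, against the background of 42.1%. At an unadjusted p under 0.05 by the exact binomial test 2 did, against a background of 49.3%.

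Sharing of mature sequences was next looked up among the sequences of the RefSeq table, by sequence and not by count. A copy that the table does not list for a gene is missed, so sharing may be understated. Of the genes counted, 916 have a mature sequence in the RefSeq table, and 1057, 36 of them detected, have none and were left out. Among those left out is Mir143, the most abundant gene of all, at 152490 ± 12395 CPM. Mir26a-2 and Mir26a-1 belong to 53 genes with 1 of 2 mature sequences identical to that of another gene. Of these 53, 39 were detected, at a median of 52.1 CPM, which is the value of Mir26a-2 itself, and the highest was Mir92-1 at 2359 CPM. Mir26a-1 lay below 29 of the 53.

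Mir26b belongs to 829 genes with no listed mature sequence in common with another. Some of these genes may share a sequence that is not listed for both loci. Of these, 279 were detected, at a median of 178 CPM, and 19 reached 10000 CPM or more, with 4 above Mir26b. In 34 genes every mature sequence listed is identical to one of another gene, and 7 of them were detected, with Mir199b at 482 CPM the highest. None of the 53 and the 34 genes reached 10000 CPM. Detection required counts, so the medians over detected genes leave out the genes below the minimum, and the classes differ in share detected, at 73.6% of the 53, 20.6% of the 34 and 33.7% of the 829. These values are a description of 2 libraries, with no test.

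**Figure D4:**
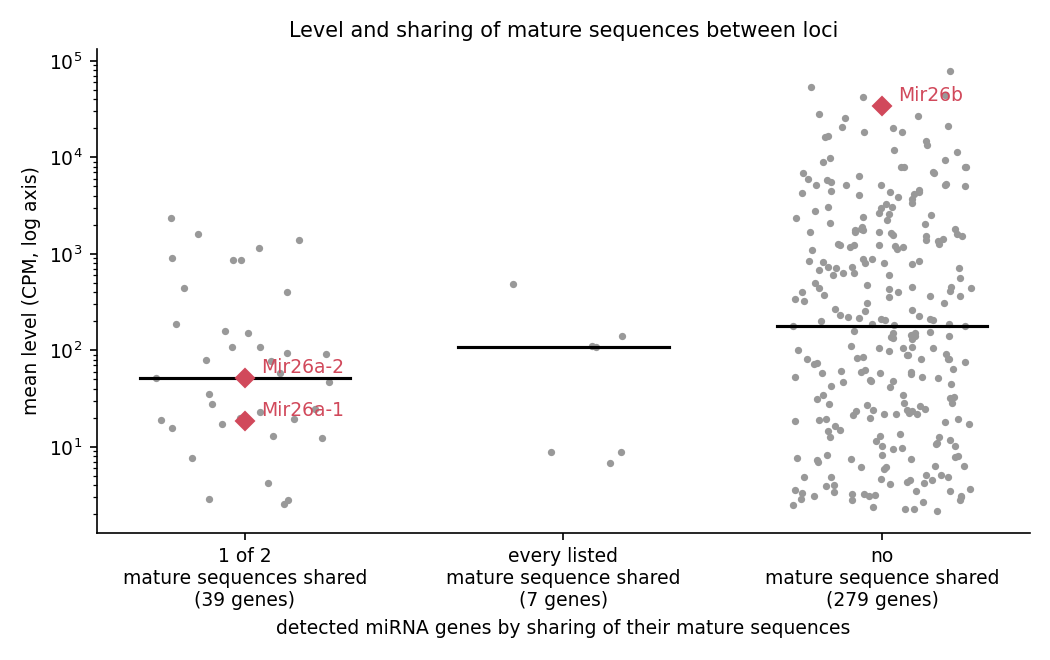
Mean level in CPM (log axis) of 325 detected genes, by whether their mature sequences are identical to those of another gene in RefSeq. Grey points are genes, black lines class medians and diamonds the Mir26 genes. Mir143, the most abundant gene, had no sequence found there and is not drawn. Mir26a-2 lies at the median of its class, 52.1 CPM. Mir26b lies among the highest of the genes with no shared mature sequence listed, whose median is 178 CPM.

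Genes that carry a duplicated mature sequence were then set beside the genes of the same seed with no shared sequence listed. This view was chosen after the values were seen. It takes the highest gene of each kind, and in 12 pairs both were detected. Its construction favours the gene with no shared sequence, so no tally of directions is given: reads that the copies share are counted for none of them, and the highest of up to 8 genes stands against 2 copies. The fold in mean CPM of counted reads was 650 for Mir26b over Mir26a-2, 311 for Mir30e over Mir30c-1 and 282 for Mirlet7g over Mirlet7c-1. The first of these turns to a log2 ratio of -3.84 with all reads that map to several places given to Mir26a. Mir25, at 788 CPM, was 0.334 times Mir92-1, at 2359 CPM, even though reads shared by the copies are left out.

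In 4 of the 12 pairs the seed has a single gene without a shared sequence in the RefSeq table. No choice of the highest enters on that side, while the loss of shared reads remains. They are Mir26b, Mir107, Mir7b and Mir19a, and the folds over the highest copy were 650, 23.8, 4.89 and 2.51. The pairs are not independent, since Mir181c and let-7 genes enter more than once. The copies differ by locus and host as well as by sequence, and the part of each was not tested.

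**Figure D5:**
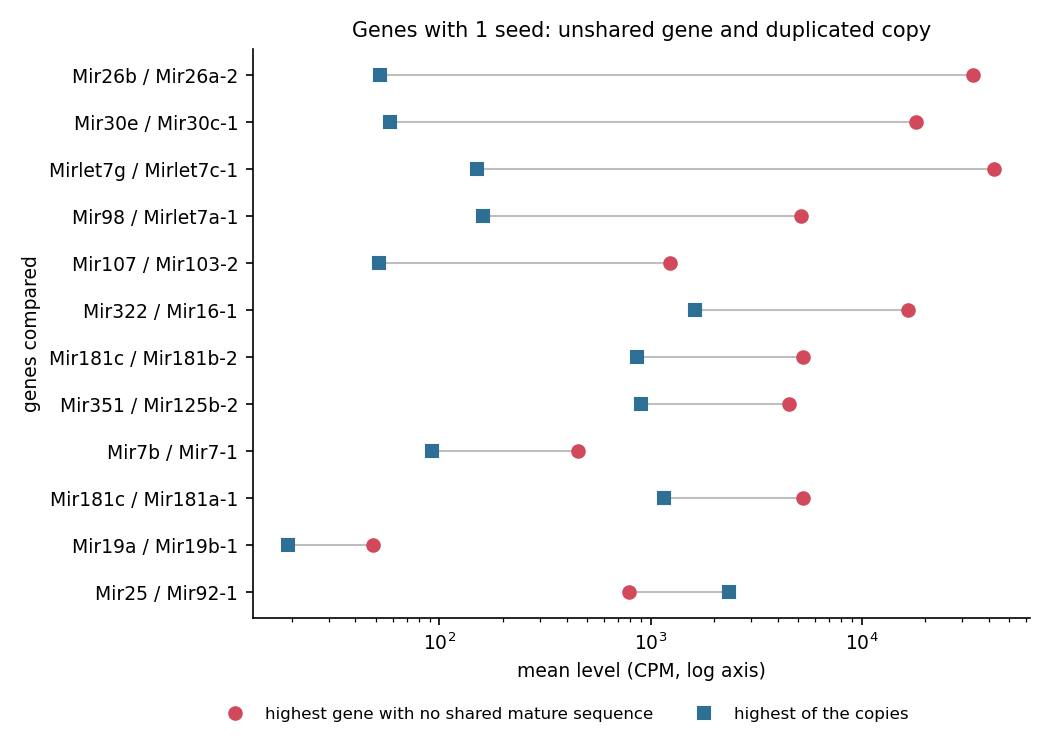
Mean level in CPM (log axis) of the highest gene with no shared mature sequence in RefSeq (circles) and of the highest copy (squares). The genes of a pair have the same bases 2 to 8. The 12 pairs are ordered by their ratio in counted reads, which leave out reads shared by the copies. Mir26b and Mir26a-2 lie 650-fold apart, a ratio that turns to -3.84 on the log2 scale with all reads mapped to several places given to Mir26a, and Mir25 lies below Mir92-1.

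The 12 other listed miRNAs in introns of host genes that have paralogues were mostly low in counted reads. All 12 of the list were counted, 11 were detected, and their median of 80.0 CPM compares with 139 CPM over all detected genes. Several of them, among these Mir128-1, Mir128-2 and Mir7-1, have 1 of 2 mature sequences shared with another gene. Reads that map to several places are counted for no gene, and the part of this in the median was not tested. Low levels also occurred with no shared sequence listed, with Mir33 at 80.3 CPM, Mir153 at 19.5 CPM and Mir208a at 2.17 CPM. Mir208b and Mir499, which was not detected, are also among the miRNAs of striated muscle above. Mir30e of Nfyc alone had 18109 ± 2864 CPM. Mir128-1 of R3hdm1 had 107 ± 19.7 CPM, Mir7-1 of Hnrnpk 92.7 ± 15.8 CPM and Mir208b of Myh7 90.7 ± 6.21 CPM. By adjusted p in the exact binomial test between libraries, 4 were higher and 1 lower in replicate 2, with backgrounds of 24.7% and 17.5%. The higher ones were Mir128-1, Mir128-2, Mir7-1 and Mir30e, at log2 ratios of 0.38, 0.53, 0.35 and 0.32. The lower one was Mir33 of Srebf2, a regulator of cholesterol export, at a log2 ratio of -0.37. These calls use shares of gene counts and can move with the scaling, as the background split does.

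Because Ctdsp phosphatases work with REST, miRNAs that REST is known to repress were listed beside the family. Of 15 genes listed, 14 were counted, 9 were detected, and the total was 2354 CPM in replicate 2 and 2193 CPM in replicate 1. Mir137, which acts in neuronal differentiation, made up most of it at 1750.4 ± 115 CPM. Mir132, an activity-regulated neuronal miRNA, had 307 ± 3.59 CPM, Mir218-2 of Slit3 80.0 ± 2.62 CPM and Mir29a 41.4 ± 1.40 CPM. No library held a count of Mir9-2, Mir124a-2 or Mir124a-1, and Mir124a-3 had 0 in replicate 2 and 1 in replicate 1. Their mature sequences are also known to come from several loci. By adjusted p in the exact binomial test, 1 gene of the 9 detected was higher and 1 lower in replicate 2. They were Mir137 at a log2 ratio of 0.13 and Mir129-2 at -0.80, against the backgrounds of 24.7% and 17.5%. Both calls use shares of gene counts and, like the background split, can move with the scaling.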

How the data were processed

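MicroRNA was sequenced from 2 stomach samples of 1 group. The authors deposited 1 table per library of read counts per gene, in whole numbers and not normalized. Per the text deposited beside the tables, they were derived from an alignment on mm10 with GENCODE M4. For the aligner, its mismatch allowance and the counter, the name is not given in the sources used here. Each table has 3 count columns without a header. From the values, the 2nd and 3rd, the annotated and the opposite strand, add up to the 1st for every gene, and the 1st was used. In the 1st column alone, a gene and an antisense partner cannot be told apart. For the 3 Mir26 genes and the 3 in Pank introns, the opposite strand held 0 counts in both libraries. Lines that name no gene held 43.3% of reads in replicate 2 and 42.8% in replicate 1 (unmapped, mapped to several places, or outside genes) and were left out of totals.

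Symbols and coordinates came from GENCODE M21 on the same assembly, by identifier without version, for 1894 of 1973 genes. Sequences came from RefSeq (GRCm38.p6). Levels are counts per 1000000 gene counts. Ratios between libraries, replicate 2 over replicate 1, were tested by an exact conditional binomial test, two-sided, with Benjamini-Hochberg adjustment over the 361 genes with 10 or more counts in both libraries and a threshold of 0.05 (scipy 1.17.1). The test was checked on simulated Poisson counts, which hold counting error and no other variation between replicates. The check therefore does not cover such variation in these libraries. With 1 group, edgeR 4.0.16 and DESeq2 1.42.0 gave scaling factors only. Intervals are at 95%, exact binomial. Per the labels each replicate is the stomach of 1 pup, but both sexes are given, so pooling of embryos is not excluded.

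Genes named are the 3 members, the 2 detected genes above and below each in mean CPM, the Pank list, and, from each other list, at most the 4 genes with the highest mean CPM. Genes outside this rule (Mir92-1, Mir199b, Mir143 in the sharing classes, Mir33, Mir153, Mir208a, Mir499, Mir128-2, Mir129-2, the genes at 0, and those paired by seed) were chosen after their values were seen. Members and lists were chosen with earlier results of these data known. Alternatives covered the strand column, the denominator, scaling factors, the count minimum, summed copies, reads that map to several places, and leaving out each replicate.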

Additional observations from a re-analysis of the deposited data

How the results depend on the processing

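The mean level of Mir26b and the family total kept within 1 SD of their values with TMM or DESeq2 scaling. So did both Mir26a levels, which also did so with the own-strand column. These scalings move the 2 libraries in opposite directions, so the mean changes little while the SD grows. For Mir26b the SD rose from 106 to 980 CPM with TMM and 1605 CPM with DESeq2. For the family total it rose from 100.5 to 977 and 1602 CPM. Leaving out either of 2 replicates always keeps within 1 SD of their mean, so that is no check of the level. Mir26b and the family were at 34833 and 34906 CPM with the own-strand column, whose total is smaller. Per 1000000 reads of any kind, Mir26b, Mir26a-2, Mir26a-1 and the family were at 19288, 29.7, 10.6 and 19329, and without the 5 most abundant genes in the total at 53932, 82.8, 29.6 and 54045 CPM. Both follow from the denominator. With the Mir26a counts summed, Mir26b exceeded them by a log2 ratio of 8.91, or 480-fold, in place of 9.35 over Mir26a-2 and 10.84 over Mir26a-1. With all reads that map to several places given to Mir26a, a bound and not an estimate, the log2 ratio reversed to -3.84 over either gene. Of Mir26a-2 over Mir26a-1 the log2 ratio was 1.25 to 1.72 when either replicate was left out.

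Between libraries, Mir26b passed the exact binomial test with TMM scaling (log2 ratio -0.059), DESeq2 factors (-0.097) and without the 5 most abundant genes (-0.055). Its adjusted p ran from 1.04e-80 to 0.559 over the alternatives. With the copies summed, the ratio of Mir26a-1, -0.19 by itself, became 0.15, that of the pair, in which Mir26a-2 has the most counts. Without the count minimum, over 722 genes and chosen after seeing the data for the member ratios, none of the 3 passed. Genes that differed by adjusted p numbered 143 to 173 over the alternatives. Leaving out a replicate leaves no ratio between libraries. No paired analysis was possible because there is 1 group. At 81 to 99 counts, Mir26a-1 is limited by depth, and its interval between libraries spans -0.63 to 0.25.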
